A study of Mus musculus with 4 samples.

Results

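Integrator is a large complex of animal cells that rides with RNA polymerase II and cuts the nascent RNA, which ends transcription early at many genes and makes the ends of spliceosomal snRNAs and enhancer RNAs. One of its arms holds the RNA endonuclease, and another holds the phosphatase PP2A, which takes phosphate groups off RNA polymerase II and the elongation factor SPT5 and so opposes the kinase CDK9. The subunits described here are 10 of the 20380 genes in a genome-wide knockout screen and were taken by name from the gene table: Ints1, Ints2, Ints4, Ints5, Ints6, Ints7, Ints8, Ints9, Ints12 and Cpsf3l, the older symbol of Ints11. They were ordered by where they sit in the complex, as 4 of the backbone, 3 of the cleavage module and 3 linked to the phosphatase.

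The screen used E14, an established mouse embryonic stem cell line, in which tdTomato reports MERVL, an endogenous retrovirus of the 2-cell embryo that also switches on in a few cultured stem cells. All groups carried this MERVL-tdTomato genotype and received the lentiviral CRISPR-Cas9 knockout library, with 130209 guides in the lentiCRISPRv2 backbone, as 1 pool. The groups were MERVL-positive cells, sorted by tdTomato at day 5, and total cells, with 2 libraries of genomic DNA each that the titles call sequencing repeats. About 130000000 cells were transduced for 24 h with polybrene at 4 ug/mL and selected for 48 h with puromycin at 2 ug/mL. About 500000 positive cells were sorted, which comes to 3.84 cells per guide of the library and 23.0 per gene with 6 guides. No separate cultures are named, so the deposited p-values may rest on technical spread.

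The authors' deposited table gives each gene 1 comparison of the groups and holds no values of single libraries. A gene has neither a level in each group nor a spread between repeats, and depth is unknown. Its log2 fold change is read here as MERVL-positive over total cells, which is likely but not stated. The reading rests on the title, which ties Ints7 deficiency to active MERVL, and on the place of Ints7 near the top for positive change, so the signs of the subunits are no independent support for it. The opposite reading would turn every sign below. A guide is called up or down where the authors' deposited table counts it past a threshold in that direction. That threshold was loose, at 37.4% of the guide ranking from the enriched end and 37.9% from the depleted end. Single guides within 2.5 percentage points of these positions had median log2 fold changes of 0.20 (56 guides) and -0.22 (51 guides) per the authors' deposited table. The 998 single non-targeting guides had a standard deviation of 0.770 on the log2 scale per the authors' deposited table, and no other measure of noise was at hand. That is a spread of single guides, and values of genes with several guides spread less. Over the 16270 genes with 6 guides the standard deviation was 0.456 per the authors' deposited table.

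The values of the subunits lay on both sides of 0. Log2 fold changes per the authors' deposited table ran from 1.37 for Ints1 to -0.54 for Ints2, and both lie in the backbone. In descending order came Ints1 at 1.37, Ints9 at 0.54, Ints4 at 0.54, Ints8 at 0.47, Ints12 at 0.46, Ints7 at 0.14, Ints6 at 0.051, Ints5 at -0.032, Cpsf3l at -0.16 and Ints2 at -0.54 per the authors' deposited table. With no spread per gene, no 2 neighbours in this order can be told apart. Ints1 alone of the 10 lay outside the range from -0.87 to 0.66 between the 5th and 95th percentile of all genes per the authors' deposited table, as the plot of log2 fold changes by module shows.

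**Figure D1:**
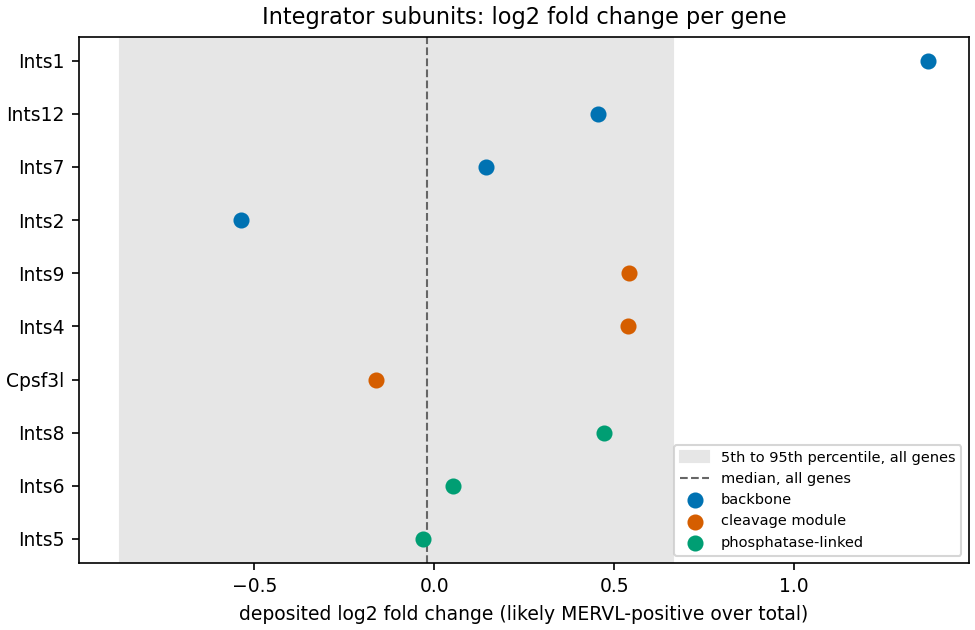
Deposited log2 fold change (horizontal axis, log2 scale, likely MERVL-positive over total cells) of the 10 Integrator subunits, coloured by module, with the 5th to 95th percentile of all 20380 genes shaded and their median dashed. Ints1 stands at 1.37, outside the shaded range, and the other 9 points lie inside it, from -0.54 to 0.54.

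A log2 fold change above 0 was found for 7 of the 10 per the authors' deposited table, against 48% of all genes. More guides up than down were found for 7 subunits per the authors' deposited table, against 40.2% of all genes, and 3 subunits had no guide down, against 6.42% of all genes with 5 or 6 guides. The median over the 10 was 0.30, beside -0.021 over all genes per the authors' deposited table, and leaving out 1 subunit at a time moved it between 0.14 (without Ints1) and 0.46 (without Ints2). Of their 58 guides, 32 were up, 13 down and 13 neither per the authors' deposited table, which is 55.2% up and 22.4% down, beside 37.4% and 38.0% over all genes. Guides against 1 gene share their target, so these shares describe the library and carry no test.

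No subunit passed a false discovery rate of 0.05 for enrichment per the authors' deposited table, where 0% of all genes did and the lowest rate was 0.827. None passed for depletion either, where the authors' deposited table holds 1 such gene, 0.00491% of all. Below an unadjusted enrichment p of 0.05 were Ints7 and Ints1 per the authors' deposited table, which makes 2 of 10 subunits, against 5.02% of all genes. Ints7 is named in the title, its rank was used to read the sign, and the subunits were chosen with earlier results of these data known. This share, like those above, therefore carries no test. No subunit had an unadjusted depletion p under 0.05 per the authors' deposited table, against 5.07% of all genes. At these cell numbers per guide, a missed threshold is no evidence that losing the subunit left MERVL unchanged.

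**Figure D2:**
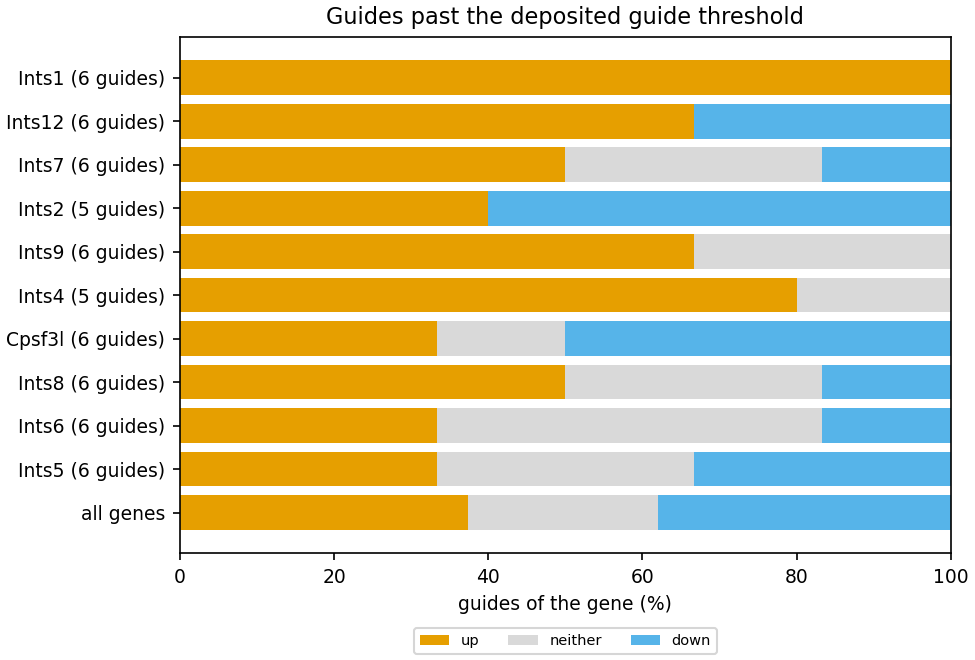
Share of each subunit's guides (horizontal axis, percent) that were up, neither or down per the authors' deposited table, with all genes in the lowest bar. All 6 guides of Ints1 were up, Ints9 and Ints4 had none down, and Ints2 and Cpsf3l each had 3 down.

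The score behind each p was used to read back where the guides of a subunit stood. It was taken as a robust rank aggregation score, in which each guide past the threshold is given the probability that the guide of that order among all guides of the gene ranks so well by chance, and the lowest of these is kept. With 1 guide past the threshold or none, the score then fixes the position of the gene's first guide. With more, each of them has a position that it cannot better, and at least 1 of them stands exactly there. The deposited numbers follow this form: in the 5599 entries with 1 guide up, the score put that guide no deeper than 37.44% of the ranking, and in the 2315 entries with none up it put the first guide no higher than 37.47%. In the 1112 entries with 1 guide, the scores of both directions added up to 1 within 5e-06 per the authors' deposited table, so a position counted from the depleted end is also known from the enriched end.

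The backbone held the widest range of the 3 modules, 1.91 on the log2 scale. INTS1 is the largest subunit and, with INTS2 and INTS7, forms the scaffold to which the other modules attach. Ints1 (gene ID 68510, chromosome 5 from 139751282 to 139775702 in mm10) had 6 of 6 guides up, an enrichment p of 0.00887 with a false discovery rate of 0.949 per the authors' deposited table. Its log2 fold change of 1.37, a ratio of 2.59, took place 37 among the 20380 genes of the authors' deposited table.

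All guides of Ints1 were up, and its score was set by the weakest of them. The depletion score per the authors' deposited table put the last of the 6 guides at 34.7% of the ranking from the enriched end, and a sixth guide at 34.7% is also what the enrichment score requires. Single guides near that position had a median log2 fold change of 0.23 (53 guides) per the authors' deposited table. Among the 35 genes with 6 of 6 guides up, Ints1 was at place 5 by log2 fold change (range 0.40 to 1.47) and at place 28 by enrichment p per the authors' deposited table. Within this small set of genes Ints1 was thus high by fold change and low by p. All 35 had an enrichment p under 0.05, the highest at 0.0134, so every gene with this guide pattern passed that threshold. The score has an upper limit once all 6 guides are up. For Ints1, a p under 0.05 is therefore no separate result from its guide count.

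Ints7 (gene ID 77065, chromosome 1 from 191575540 to 191623690 in mm10), the subunit that the study's title names, had the opposite profile. Its enrichment p of 0.00714 was slightly better than that of Ints1, at rank 157 of 22510 entries and a false discovery rate of 0.931 per the authors' deposited table. Its log2 fold change was 0.14, a ratio of 1.11, and 65.5% of all genes lay below it per the authors' deposited table. Its 6 guides comprised 3 up, 2 neither and 1 down per the authors' deposited table.

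The enrichment score of Ints7 rests on at most its 3 guides counted up. From the score per the authors' deposited table, the first guide ranked no better than 0.0234%, the second no better than 0.979% and the third no better than 4.26%, with at least 1 of the 3 exactly there. Gene values went with the direction of the middle guide: in genes with 5 guides, they ran from 0.14 to 2.00 where the middle guide was up (918 genes) and from -3.96 to -0.087 where it was down (899 genes) per the authors' deposited table. Where the middle guide was neither (1490 genes), gene values ran from -0.46 to 0.57, which overlaps both of those ranges. If the value of Ints7 is the mean of the third and the fourth of its guides, and the fourth, which was neither, lay no lower than the lowest such single guide at -0.42, the third reached at most 0.71. Of the 53 single guides around 4.26%, 3 lay at or below 0.71 per the authors' deposited table. The third guide would then hold that position only with a low value for it, but how the gene value was made is not stated. The last guide of Ints7 stood at 79.5% from the enriched end, where single guides had a median of -0.53 (49 guides) per the authors' deposited table. Its guides thus lay in both directions, with at least 1 within 4.26% of the enriched end.

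Set beside genes of the same guide pattern, Ints7 was near the top by p and low by fold change. Among 1204 genes with 6 guides, of which 3 were up and 1 down, it was at place 10 by enrichment p and at place 1065 by log2 fold change per the authors' deposited table. The median of these genes was 0.27 for log2 fold change and 0.357 for enrichment p per the authors' deposited table. Of the 92 other genes within 50 ranks of Ints7, 13 had a lower log2 fold change, and their median was 0.81 per the authors' deposited table. For Ints1, 94 of 96 such genes had a lower log2 fold change than it, with a median of 0.72 per the authors' deposited table. These places are descriptions of 1 comparison and were not tested.

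**Figure D3:**
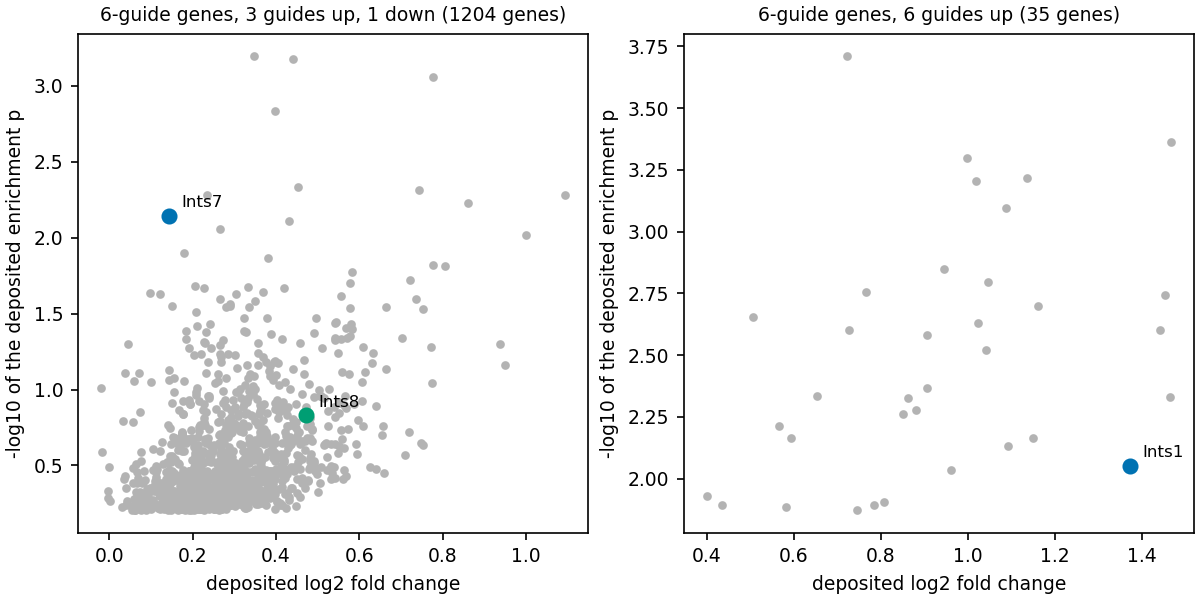
Deposited log2 fold change (horizontal axis) against -log10 of the deposited enrichment p (vertical axis) for genes with 6 guides, each grey point a gene. Left, 1204 genes with 3 guides up and 1 down, where Ints7 lies high and to the left, with Ints8 at 0.47 and lower down. Right, 35 genes with 6 guides up, where Ints1 lies low and to the right, at 1.37.

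The genes nearest to Ints7 in enrichment rank, 1 or 2 places before or after it, were Fbxo28 at 0.93, Pde7b at 0.88, Necab1 at 1.21 and Btc at 0.58 on the log2 fold change scale per the authors' deposited table. All 4 had more guides up than Ints7, with 5, 4, 5 and 4 of 6 per the authors' deposited table. The genes nearest to Ints1 were P2ry13 at 0.82, Cdo1 at 0.19, Fra10ac1 at 0.84 and 2310007B03Rik at 1.02 per the authors' deposited table. Of these, Cdo1 had 2 guides up and 2 down and the other 3 had 5 up per the authors' deposited table. Likeness here is closeness in 1 rank, with no second comparison to set beside it.

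The other backbone entries were Ints12 and Ints2, and neither had a guide left between the thresholds. INTS12 is a small subunit with a PHD finger that binds INTS1. Ints12 (gene ID 71793, chromosome 3 from 133091855 to 133110988 in mm10) stood at 0.46 for log2 fold change (ratio 1.37), with 4 guides up and 2 down per the authors' deposited table. Its enrichment p of 0.0783 was the third lowest of the 10, with a depletion p of 0.395 per the authors' deposited table. Of its guides counted down, the last ranked no better than 3.57% from the depleted end and the one before it no better than 13.8%, with at least 1 exactly there, by the score per the authors' deposited table. Ints12 was therefore a gene of split guides, like Ints7 but with a higher log2 fold change.

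Ints2 (gene ID 70422, chromosome 11 from 86210681 to 86257609 in mm10) had the lowest log2 fold change of the 10, -0.54 (ratio 0.689), and its 5 guides split into 2 up and 3 down per the authors' deposited table. Its depletion p was 0.409 and its enrichment p 0.481 per the authors' deposited table. Among 249 genes with 5 guides, 2 up and 3 down, Ints2 was at place 125 by log2 fold change and was itself the median gene per the authors' deposited table. The value of Ints2 thus lies in the middle for its guide pattern, and 13.7% of all genes lay below it per the authors' deposited table.

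In the cleavage module, INTS11 is the endonuclease, INTS9 is its relative without catalytic activity, with which it pairs, and INTS4 holds the pair together. Guides against the partner and the holder were mostly up, and those against the enzyme were not. Ints9 (gene ID 210925, chromosome 14 from 64950045 to 65039835 in mm10) stood at 0.54 for log2 fold change (ratio 1.45), with 4 guides up, 2 neither and none down, and an enrichment p of 0.177 per the authors' deposited table. Ints4 (gene ID 101861, chromosome 7 from 97480951 to 97541398 in mm10) stood at 0.54 as well (ratio 1.45), with 4 of its 5 guides up, 1 neither and none down, and an enrichment p of 0.137 per the authors' deposited table. Of all genes per the authors' deposited table, 91.5% lay below Ints9 and 91.3% below Ints4 by log2 fold change.

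Their last guides stood at 60.7% of the ranking for Ints9 and 57.0% for Ints4, counted from the enriched end, by the scores per the authors' deposited table. Single guides near these places had median log2 fold changes of -0.19 (61 guides) and -0.14 (55 guides) per the authors' deposited table. For the first guides the bounds lay deeper in the ranking than for Ints7: no better than 1.10% for Ints9 and 0.988% for Ints4 by the scores per the authors' deposited table. Among 334 genes with 6 guides, 4 up and none down, Ints9 was at place 162 by enrichment p and 132 by log2 fold change per the authors' deposited table. Ints4 was at place 67 by enrichment p and 60 by log2 fold change among 84 genes with 5 guides, 4 up and none down, per the authors' deposited table.

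Cpsf3l (Ints11, gene ID 71957, chromosome 4 from 155869547 to 155889103 in mm10) stood at -0.16 for log2 fold change (ratio 0.894), with 2 guides up, 1 neither and 3 down per the authors' deposited table. Its p-values were 0.585 for enrichment and 0.565 for depletion per the authors' deposited table, and 37.4% of all genes lay below it by log2 fold change. Its first guide ranked no better than 7.36% from the enriched end and its last no better than 6.89% from the depleted end, by the scores per the authors' deposited table. No guide against the endonuclease thus stood nearer to either end than that. Whether it differs from Ints9 and Ints4 could not be tested, because the table holds nothing on the scatter of repeats. The module's median was 0.54, with 10 of 17 guides up (58.8%) and 3 down (17.6%), beside 37.4% and 38.0% over all genes per the authors' deposited table. All 3 of the module's guides down belong to Cpsf3l.

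**Figure D4:**
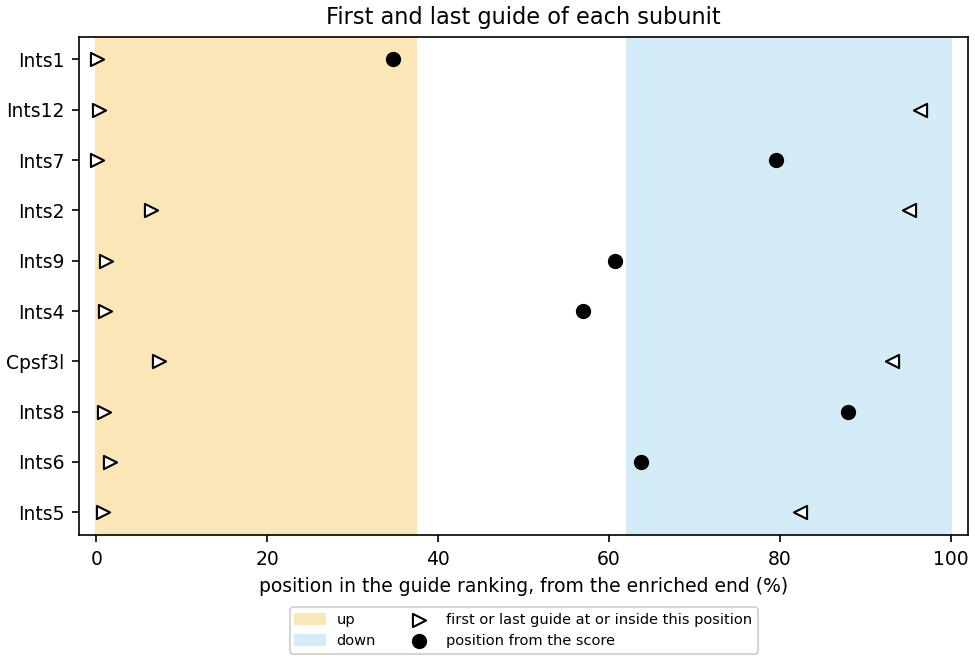
Position of the first and last guide of each subunit in the guide ranking (horizontal axis, percent from the enriched end), read from the deposited scores, with the regions called up and down shaded. Filled circles are positions that the score fixes, such as 34.7% for the last guide of Ints1, 57.0% for Ints4 and 79.5% for Ints7, and open triangles are the farthest positions that the first or last guide can hold.

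The subunits linked to the phosphatase had the lowest median log2 fold change of the 3 modules, 0.051 per the authors' deposited table, which was 0.26 without Ints5. By median enrichment rank, at 3091, they came after the backbone at 922 and before the cleavage module at 3734 per the authors' deposited table. INTS8 and INTS5 form the shoulder of the complex, where INTS8 helps to recruit PP2A, and INTS6 binds PP2A directly. Ints8 (gene ID 72656, chromosome 4 from 11199158 to 11254265 in mm10) stood at 0.47 for log2 fold change (ratio 1.39), with 3 guides up, 2 neither and 1 down, and an enrichment p of 0.147 per the authors' deposited table. Its guide pattern is that of Ints7, yet it was at place 123 of the 1204 genes by log2 fold change and at 220 by enrichment p per the authors' deposited table. The one guide down stood at 88.0% from the enriched end by the score per the authors' deposited table, where single guides had a median of -0.73 (45 guides).

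Ints6 (gene ID 18130, chromosome 14 from 62676325 to 62761163 in mm10) stood at 0.051 for log2 fold change (ratio 1.04), with 2 guides up, 3 neither and 1 down per the authors' deposited table. Its last guide, at 63.8% from the enriched end by the score per the authors' deposited table, was barely past the threshold. Ints5 (gene ID 109077, chromosome 19 from 8892987 to 8897890 in mm10) stood at -0.032 for log2 fold change (ratio 0.978), with 2 guides in each class per the authors' deposited table. Enrichment p-values were 0.235 for Ints6 and 0.139 for Ints5 per the authors' deposited table. The p of Ints5 is close to that of Ints4, at 0.137, although their log2 fold changes lie at opposite sides of 0 per the authors' deposited table. For Ints5 the first guide ranked no better than 0.785% and the second no better than 6.02%, by the score per the authors' deposited table. The phosphatase-linked genes had 7 of 18 guides up (38.9%) and 4 down (22.2%) per the authors' deposited table. Their share up was near that of all genes, which had 37.4% of guides up and 38.0% down. The backbone had a median of 0.30, with 15 of 23 guides up (65.2%) and 6 down (26.1%).

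**Figure D5:**
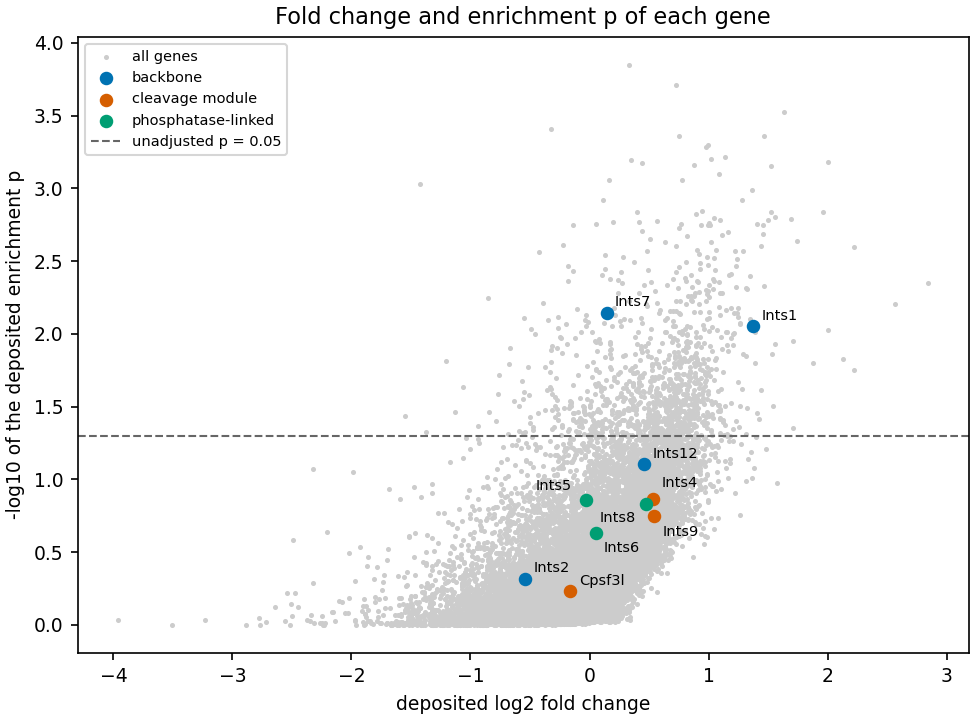
Deposited log2 fold change (horizontal axis) against -log10 of the deposited enrichment p (vertical axis) for all 20380 genes in grey and the 10 subunits in colour, with an unadjusted p of 0.05 dashed. Ints7 at 0.14 and Ints1 at 1.37 lie above the line at nearly the same height, and the other 8 subunits lie below it.

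The phosphatase that these subunits hold had guides in both directions. The catalytic subunit genes of PP2A, Ppp2ca and Ppp2cb, had log2 fold changes of 0.41 and -0.27 per the authors' deposited table, with 4 up and 2 down for Ppp2ca and 2 up and 3 down for Ppp2cb. The scaffold genes Ppp2r1a and Ppp2r1b had values of 0.17 and 0.60 per the authors' deposited table, with 3 up and 2 down, and 4 up and 1 down. Ppp2ca had a lower p for depletion (0.12) than for enrichment (0.327), against the sign of its log2 fold change, per the authors' deposited table. The same held for Ppp2r1a, at 0.129 and 0.621. Ppp2cb, with a negative log2 fold change, had 0.130 for depletion and 0.317 for enrichment, and Ppp2r1b had 0.526 and 0.179. PP2A serves many other complexes, so these genes are not specific to Integrator.

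Of proteins that bind the INTS9 and INTS11 pair, Wdr73 stood at 0.42 for log2 fold change, its 6 guides comprising 4 up and 1 down, and Brat1 at -0.24, with 2 up and 3 down per the authors' deposited table. Their enrichment p-values were 0.134 and 0.428 per the authors' deposited table. Outside the modules above, 4 further Integrator subunits were looked up: Ints3, Ints10, Asun (Ints13) and Vwa9 (Ints14). They ranged from -0.37 to 0.42, 3 of them above 0, with enrichment p-values from 0.348 to 0.823 per the authors' deposited table. Of all genes, 48% lay above 0. The 4 subunits had 22 guides, with 10 up (45.5%) and 7 down (31.8%), beside 37.4% and 38.0% over all genes per the authors' deposited table.

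Other genes of the pathway lay near the middle of the table. In 6 lists with PP2A, the INTS9 and INTS11 partners, the single-stranded DNA binding SOSS complex that shares INTS3, pre-mRNA 3′ cleavage, snRNA transcription and promoter-proximal pausing, 36 of 37 genes were found in the authors' deposited table. None of the 36 had an unadjusted p under 0.05 in either direction per the authors' deposited table, against 5.02% of all genes for enrichment and 5.07% for depletion. Their median log2 fold change was -0.016, with 17 above 0 and 39.6% of guides up, near the values of all genes per the authors' deposited table. The lists for 3′ cleavage (10 genes), snRNA transcription (8 genes) and pausing (9 genes) had medians of 0.017, 0.038 and -0.11 per the authors' deposited table. The medians were 0.29 for PP2A (4 genes), 0.090 for the INTS9 and INTS11 partners (2 genes) and -0.40 for SOSS (3 genes). By median and share of guides up, PP2A, with 54.2% up, lay close to the 10 subunits, at 0.30 and 55.2%. Its share of guides down was 33.3%, beside 22.4% for the 10, and its median enrichment rank was 6817, beside 3059, per the authors' deposited table. The pooled median does not show these differences between lists, which were not tested. The SOSS genes Nabp1, Nabp2 and Inip, named here after their values were seen, all lay below 0, at -0.31, -0.40 and -0.48, with 10 of 17 guides down (58.8%) per the authors' deposited table. Of all 20380 genes, 10592 lay below 0, with 38.0% of guides down. Depletion p-values of the 3 SOSS genes were 0.537, 0.157 and 0.196 per the authors' deposited table.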

How the data were processed

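Per the labels' protocols, PCR amplified the guides from genomic DNA for 2 libraries of MERVL-positive and 2 of total cells. The submitters' processing notes name MAGeCK and mm10, with version, settings and normalization not given in the sources used here. Per the file headers, the authors deposited 1 table of 22510 entries with a score, a p-value, a false discovery rate, a rank and a number of guides past a threshold per direction, and a log2 fold change between the groups. The log base is taken as the tool's usual one. The 1132 microRNA entries and 998 non-targeting guides were not counted as genes. Depth is unknown, so precision per gene cannot be given.

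No model was fitted, since there are no values per library: the deposited p-values and false discovery rates were used unchanged, with thresholds of 0.05. Counts and medians of subunits were set beside those of all genes. Guide positions were computed from the scores with beta quantiles (Python 3.11.15, pandas 2.3.3, scipy 1.17.1). The step was run on data simulated with the same form of score. That checks the arithmetic and cannot show that the deposited scores have this form. Positions of genes came from RefSeq on GRCm38.p6, which has mm10 coordinates; 9 subunits matched by symbol and 1 by synonym. Guide sequences were not used here.

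The subunits, modules and lists were chosen with earlier results of these data known. Named were all 10 subunits, the PP2A and partner genes, pathway genes with an unadjusted p under 0.05 (none), and the 2 genes on each side of Ints7 and Ints1 in enrichment rank. Ints3, Ints10, Asun and Vwa9 were named for their counts and range, and the 3 SOSS genes after their values were seen. The alternatives tried were the centre of the scale, mean or median, the measure, each subunit left out, the thresholds, 14 subunits and the genes used for percentiles.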

Additional observations from a re-analysis of the deposited data

How the results depend on the processing

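All 46 alternative values of the medians and counts kept their direction, and every count stayed within 1.5 times its first value. A shift of a median by less than the standard deviation among its subunits was taken as no change, which is wide. It was 0.520 for the 10, 0.793 for the backbone and 0.271 for the phosphatase-linked genes, each larger than the median itself (0.30, 0.30 and 0.051). A fall of these medians to 0 would thus have been within the allowed size, so the check says little about how firm they are. For the cleavage module it was 0.404, beside a median of 0.54. Leaving out 1 subunit at a time, the median of the 10 ran from 0.14 without Ints1 to 0.46 without Ints2, with the same range for the backbone. The median ran from 0.19 without Ints9 to 0.54 without Cpsf3l for the cleavage module and from 0.0092 without Ints8 to 0.26 without Ints5 for the phosphatase-linked genes. An enrichment p under 0.05 was held by 2 subunits, against 5.02% of all genes, and thresholds of 0.1 and 0.01 gave 3 and 2. The share of all genes was not taken at 0.1 or 0.01, so those counts have no background to be read against. Percentiles among genes with the same number of guides differed by at most 2.84 percentage points. Of these percentiles, which are not among the 46 values above, 6 were counted as moved and 4 as unchanged. No paired analysis was possible because the deposited values are 1 comparison, with no value per library. With about 3.84 sorted cells per guide and no spread between libraries, differences between subunits could not be tested.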
